A study of Mus musculus with 96 samples.

Results

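The comparison described here asks what loss of Msh6 does to the striatal transcriptome of a mouse that carries a Huntington's disease mutation. It set 8 striata of Q140 Msh6-/- mice against 8 striata of Q140 mice, chosen by the genotype and tissue in the sample titles, which is 16 of the 96 libraries of the series. Both groups were heterozygous for Q140, a knock-in allele of the huntingtin gene Htt with an expanded CAG repeat, so neither is a healthy control, and they differ in the Msh6 alleles alone as far as the labels say. All mice were on a C57BL/6 background and were 6 months old, and each group held 4 males and 4 females. The series also holds the cortex of the same mice and both tissues of wild-type, Msh6+/-, Msh6-/- and Q140 Msh6+/- mice, 8 of each. The labels do not say how the Msh6 allele was made or which exons it lacks, and they give no CAG repeat length for any mouse. Each library is bulk RNA of dissected tissue, in which fewer cells of a type and less RNA per cell cannot be told apart.

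Msh6 is a DNA mismatch repair protein. It is the subunit that sets apart MutSα, the complex that recognises single-base mismatches and very short insertion or deletion loops and passes them to the MutL complexes for excision. Msh3 is the subunit that sets apart MutSβ, which recognises larger loops. Mismatch repair proteins act on expanded CAG repeats, whose length changes over life in somatic cells, and the projection neurons of the striatum are the cells most affected in Huntington's disease.

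The striatal libraries held 15.8 to 20.6 M counts (M is mega) in Q140 mice (median 18.2 M) and 12.5 to 20.2 M in Q140 Msh6-/- mice (median 17.8 M). Levels are given as CPM, counts per M counts after scaling of library sizes, and differences as log2 fold changes with their standard errors. Genes were called changed at a Benjamini-Hochberg adjusted p under 0.05 in edgeR's quasi-likelihood test over 17503 genes. For the 14065 of these whose log2 CPM averaged 1 or more, the median standard error of the difference was 0.054. The 47 listed genes of striatal projection neuron identity, of which 46 were tested, summed to 19050 to 20500 CPM in Q140 and 18880 to 20600 CPM in Q140 Msh6-/- striata. This sum was not set beside that of cortex, so it does not check the tissue label. Htt itself did not pass the test, with 205.8 to 229.3 CPM against 210.9 to 224.2 CPM and a difference of 0.00 ± 0.035.

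The labels were first checked by the targeted gene, Msh6 (ENSMUSG00000005370), at 87975062 to 87990892 on chromosome 17 of GRCm38. Its transcript ran from 18.1 to 20.1 CPM (median 18.8) in Q140 and from 7.31 to 9.53 CPM (median 8.13) in Q140 Msh6-/- striata. Every Q140 Msh6-/- mouse was below every Q140 mouse, by -1.21 ± 0.066 (adjusted p = 1.31e-19), a mean of 0.431 times the Q140 level. Reads from the rest of the gene can still be counted when a part of it is deleted, and which part is missing is not given in the sources used here. In Q140 Msh6+/- mice the transcript lay between the 2 groups, at 12.6 to 15.3 CPM (median 14.0), and differed from Q140 by -0.45 (adjusted p = 4.77e-05), the single gene called there (0.00571% of those tested).

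One Q140 Msh6-/- library stood apart and touches many of the results. The striatum of mouse 21-3 carried transcripts of the choroid plexus, the epithelium inside the brain ventricles that makes cerebrospinal fluid. Of 30 choroid plexus genes, 29 were highest in this library among all 48 striata and 20 were over 5 times above every other one, while in the cortex of the same mouse none was over 5 times above the other cortices. Ttr, the thyroid hormone carrier transthyretin that the choroid plexus makes in bulk, stood at 2491 CPM in mouse 21-3 and at most 23.1 CPM in the other 7 Q140 Msh6-/- striata. Kl, the ageing-related hormone co-receptor klotho, stood at 127.3 CPM against at most 4.80 CPM. The list summed to 4902 CPM in mouse 21-3, to 326.6 to 379.6 CPM in the other 7 and to 310.8 to 372.3 CPM in the Q140 striata. Of 14 tested genes of ependyma, the ciliated lining next to the choroid plexus, 0 passed the test in edgeR or DESeq2 and 0 had an unadjusted p under 0.05, but all 14 lay above 0. Their median difference was 0.42, and 0.37 without mouse 21-3, against 0.002 over all genes, and their sums were 93.2 to 129.4 CPM against 71.6 to 123.3 CPM.

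**Figure D1:**
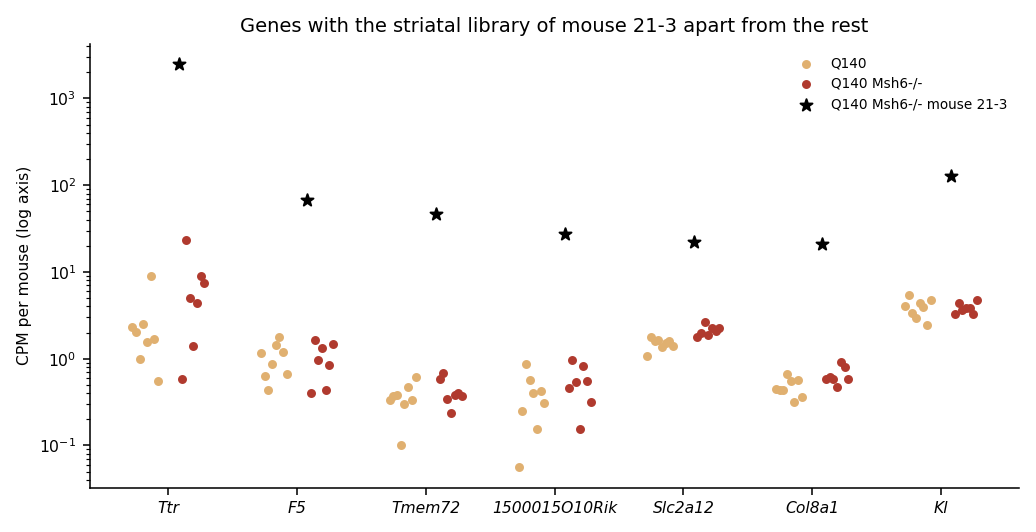
CPM on a log axis of Ttr, F5, Tmem72, 1500015O10Rik, Slc2a12, Col8a1 and Kl in each of the 16 striata. Mouse 21-3 is marked apart from the other 7 Q140 Msh6-/- and the 8 Q140 mice. Of these genes, 1500015O10Rik and Slc2a12 are not on the choroid plexus list. Ttr reads 2491 CPM in mouse 21-3 and at most 23.1 CPM in the rest of its group.

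With all 16 mice, 31 genes were called, 0.177% of those tested. Of these, 20 were higher in Q140 Msh6-/- striatum (0.114%) and 11 lower (0.0628%), and 957 genes had an unadjusted p under 0.05. Without mouse 21-3, 14 genes were called (0.0796%), 6 higher (0.0341%) and 8 lower (0.0455%), of which 13 were among the 31. The other was Zfp992, a zinc finger gene, at -1.81 ± 0.39 (adjusted p = 0.0359) against -1.40 ± 0.37 with all mice (adjusted p = 0.16). The count also moved by over 1.5 times on leaving out 1 of 4 Q140 mice, to 15 without mouse 18-5, 16 without 23-2, 17 without 24-1 and 16 without 29-3. When each of the 16 mice was left out in turn, 11 of the 31 genes stayed called every time, among them Nat8f2, Msh6, Ifi203, both identifiers of 1700030C10Rik, Znf41-ps, Pcdha8, Rps4l, Rnf17 and Zfp991. The other 20 lost the call on leaving out at least 1 mouse. For 10 of the 31 genes the ranges of the groups did not overlap, against 13 genes, 0.0743%, of all tested. Called genes lay on 13 chromosomes, and 14 of the 31 lay within 2 Mb of another called gene. These include both 1700030C10Rik identifiers, Ifi203 and Mndal, members of the protocadherin clusters, and Msh6 itself. No such count was made for the other genes tested, so it is no measure of clustering.

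The number before the hyphen in a mouse's name, whose meaning the labels do not state, differed between the groups (14 to 29 in Q140 and 21 to 38 in Q140 Msh6-/- mice). With this prefix as covariate, 22 of the 31 stayed called, and Trem2, Sec24d, Bub1b, Mndal, Rhoq, Pcdhga11, 3222401L13Rik, Gm9989 and Gm4349 did not, at adjusted p of 0.054 to 0.181. In the 5 Q140 and 6 Q140 Msh6-/- mice with prefixes 21 to 29, 11 of the 31 stayed called and all 31 kept their direction. With the libraries of the compared groups alone, 14 stayed called.

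Of the 31 calls, 6 were genes that mouse 21-3 expressed at over 5 times the level of the next mouse of its group. They were Ttr, Tmem72, F5 (coagulation factor V), Col8a1 (a short-chain collagen), 1500015O10Rik and Slc2a12 (a glucose transporter). With all mice their differences ran from 1.59 ± 0.36 for Slc2a12 to 6.36 ± 1.2 for Ttr (adjusted p = 0.00427). Without mouse 21-3 they ran from -0.05 for F5 to 1.49 for Ttr, with none called. Slc2a12 was then at 0.52 ± 0.18 (adjusted p = 0.919), and its groups still did not overlap. It ran from 1.061 to 1.756 CPM in Q140 and from 1.785 to 2.661 CPM in the other Q140 Msh6-/- striata. Kl was at 2.14 ± 0.52 (adjusted p = 0.0642) with all mice and at -0.00 without mouse 21-3. Over the 19 choroid plexus genes tested the median difference was 0.90 with and 0.06 without this library, against 0.002 over all genes either way.

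Among the genes called both with and without mouse 21-3, the largest difference was a rise of Nat8f2, a member of the Nat8 family of N-acetyltransferases found as a cluster on chromosome 6 (ENSMUSG00000033634, 85865422 to 85869158, GRCm38). Its level was 0.110 to 1.01 CPM (median 0.600) in Q140 and 6.74 to 8.13 CPM (median 7.44) in Q140 Msh6-/- striata. The lowest Q140 Msh6-/- mouse was well above the highest Q140 mouse, and the rise was 3.79 ± 0.19 (adjusted p = 2.95e-21) with mouse 21-3 and 3.81 ± 0.19 without it. As mean FPKM, which takes gene length into account, Nat8f2 rose from 0.164 to 2.31, beside 4.57 and 1.97 for Msh6. In mice with 1 Msh6 allele its level was 0.611 to 1.495 CPM with wild-type Htt and 0.470 to 1.39 CPM on Q140. Against wild type, the Msh6+/- value was higher by 1.33 ± 0.26 (adjusted p = 0.0367), 1 of 2 genes called there (0.0114% of those tested). Against Q140, the Q140 Msh6+/- value differed by 0.66 ± 0.25 (adjusted p = 0.999).

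Of the genes around Nat8f2, 1 was called by edgeR. Nat8f4, its neighbour 33.6 kb away, was higher by 0.33 ± 0.074 (adjusted p = 0.0386), with 9.09 to 13.6 CPM in Q140 and 13.5 to 17.0 CPM in Q140 Msh6-/- striata. Without mouse 21-3 it was at 0.34 (adjusted p = 0.0549), and it stayed called in 4 of the 16 leave-outs. Nat8f3 was at 0.43 ± 0.17 (adjusted p = 0.831), Nat8f5 at 0.16 ± 0.20, Nat8 at 0.13 ± 0.19 and Nat8f1 at 0.17 ± 0.087, none of which passed. Tprkb, a subunit of a tRNA-modifying complex that overlaps Nat8f1 in the annotation, was at -0.17 ± 0.040 in edgeR (adjusted p = 0.0608) and was called by DESeq2 (adjusted p = 0.0272).

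Outside this cluster Ifi203 and Mndal rose together. They are neighbours in the Ifi200 cluster of interferon-inducible nucleic acid sensors on chromosome 1. The 250 bases before the annotated starts of Nat8f2 and Nat8f4 and of this pair are shown because each pair lies side by side, Nat8f2 and Nat8f4 with unlike and Ifi203 and Mndal with like rises. They are RefSeq sequences on GRCm38.p6, all on the minus strand, 5′ to 3′, and the last base is the one before the start. Capitals mark all matches to the motifs searched on both strands, which are described after the sequences (CCAAT is in the Nat8f2 sequence alone). They lie at chr6:85869138-85869387 for Nat8f2, chr6:85904939-85905188 for Nat8f4, chr1:173942493-173942742 for Ifi203 and chr1:173880188-173880437 for Mndal.
Nat8f2: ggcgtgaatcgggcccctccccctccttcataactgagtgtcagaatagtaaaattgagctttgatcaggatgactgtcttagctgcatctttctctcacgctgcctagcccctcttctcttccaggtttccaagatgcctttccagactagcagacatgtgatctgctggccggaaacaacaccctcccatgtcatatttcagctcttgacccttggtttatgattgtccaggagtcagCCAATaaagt
Nat8f4: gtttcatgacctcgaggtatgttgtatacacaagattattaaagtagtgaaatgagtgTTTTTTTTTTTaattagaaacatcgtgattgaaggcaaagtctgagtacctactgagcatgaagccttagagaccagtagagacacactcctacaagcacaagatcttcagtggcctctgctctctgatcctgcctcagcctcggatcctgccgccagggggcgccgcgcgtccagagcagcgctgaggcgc
Ifi203: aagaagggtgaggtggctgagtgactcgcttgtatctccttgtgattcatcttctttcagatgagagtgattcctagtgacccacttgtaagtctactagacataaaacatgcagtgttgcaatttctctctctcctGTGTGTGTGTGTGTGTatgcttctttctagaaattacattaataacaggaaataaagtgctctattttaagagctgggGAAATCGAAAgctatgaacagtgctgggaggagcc
Mndal: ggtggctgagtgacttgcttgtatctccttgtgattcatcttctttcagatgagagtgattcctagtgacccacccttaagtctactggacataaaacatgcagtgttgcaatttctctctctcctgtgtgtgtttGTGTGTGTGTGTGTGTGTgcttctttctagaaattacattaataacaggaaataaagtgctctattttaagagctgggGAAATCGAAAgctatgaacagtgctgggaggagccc

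The motifs searched were CCAAT, the TATA box TATAAA (12.4% of promoters), the GC box GGGCGG (32.7% of promoters), 2 copies of GAAA with 2 bases between them, runs of 1 base and GT repeats. The Nat8f2 sequence holds CCAAT at 10 to 6 bases before the start, a motif that 33.8% of the 32851 RefSeq promoters of this length hold. The Nat8f4 sequence has a run of 11 T at 192 to 182 bases before the start, and runs of 10 or more of the same base stand in 6.98% of promoters. Each sequence shown is that of a single RefSeq start of its gene. At RefSeq starts not shown, Nat8f4 has matches to CCAAT and TATAAA, and Mndal has a match to CCAAT. The sequences of Ifi203 and Mndal are nearly copies of each other, with 233 of 239 aligned bases identical (97.5%, 10 gap positions). Both hold a GT repeat, 16 bases long in Ifi203 and 18 in Mndal, and repeats of at least 6 GT units stand in 0.837% of promoters. Both also hold the spaced GAAA pair, which has the letters of an interferon-stimulated response element core, at 35 to 26 and 36 to 27 bases before the start, against 2.98% of promoters. For 16 of the 30 called symbols RefSeq gave a promoter, 21 in all, and 5 of these, of Bub1b, Eps8l1, Ifi203 and Mndal, hold the GAAA pair. Some genes have several of these promoters, and the sequences of Ifi203 and Mndal are near copies, so the 5 are not separate occurrences.

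Ifi203 (173920407 to 173942672 on chromosome 1) ran from 0.663 to 2.18 CPM (median 1.37) in Q140 and from 2.12 to 4.62 CPM (median 3.37) in Q140 Msh6-/- striata. The ranges overlapped narrowly, and the rise was 1.27 ± 0.18 (adjusted p = 2.37e-05), with 1.27 without mouse 21-3. Mndal ran from 0.569 to 1.68 CPM (median 0.772) against 1.14 to 2.42 CPM (median 1.68). Its rise of 0.98 ± 0.22 (adjusted p = 0.0386) lost the call without mouse 21-3, at 0.95 (adjusted p = 0.109), and stayed called in 6 of the 16 leave-outs. Their annotated spans overlap and their sequences are alike, so the authors' counting may have split reads between them. Of 16 genes listed for the cluster, 9 were in the deposited counts under those names, and 3 of these were expressed enough to test. The tested gene besides Ifi203 and Mndal was Aim2, the cytosolic DNA sensor, at -0.27 ± 0.23 (adjusted p = 0.972).

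No gene of the wider interferon response passed the test. Of 25 tested genes induced by type I interferon, 0 passed the test in edgeR or DESeq2, 2 had an unadjusted p under 0.05, and 4 lay above 0. Their median difference was -0.14, against 0.002 over all genes. The 2 with the smallest p were Mx2, an antiviral GTPase, at -0.50 ± 0.22 and Usp18, which removes the ubiquitin-like Isg15, at -0.71 ± 0.32 (adjusted p = 0.872 for both). Usp18 was 2.80 CPM in Q140 mouse 19-3 and at most 0.916 CPM in the other 7 Q140 mice.

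**Figure D2:**
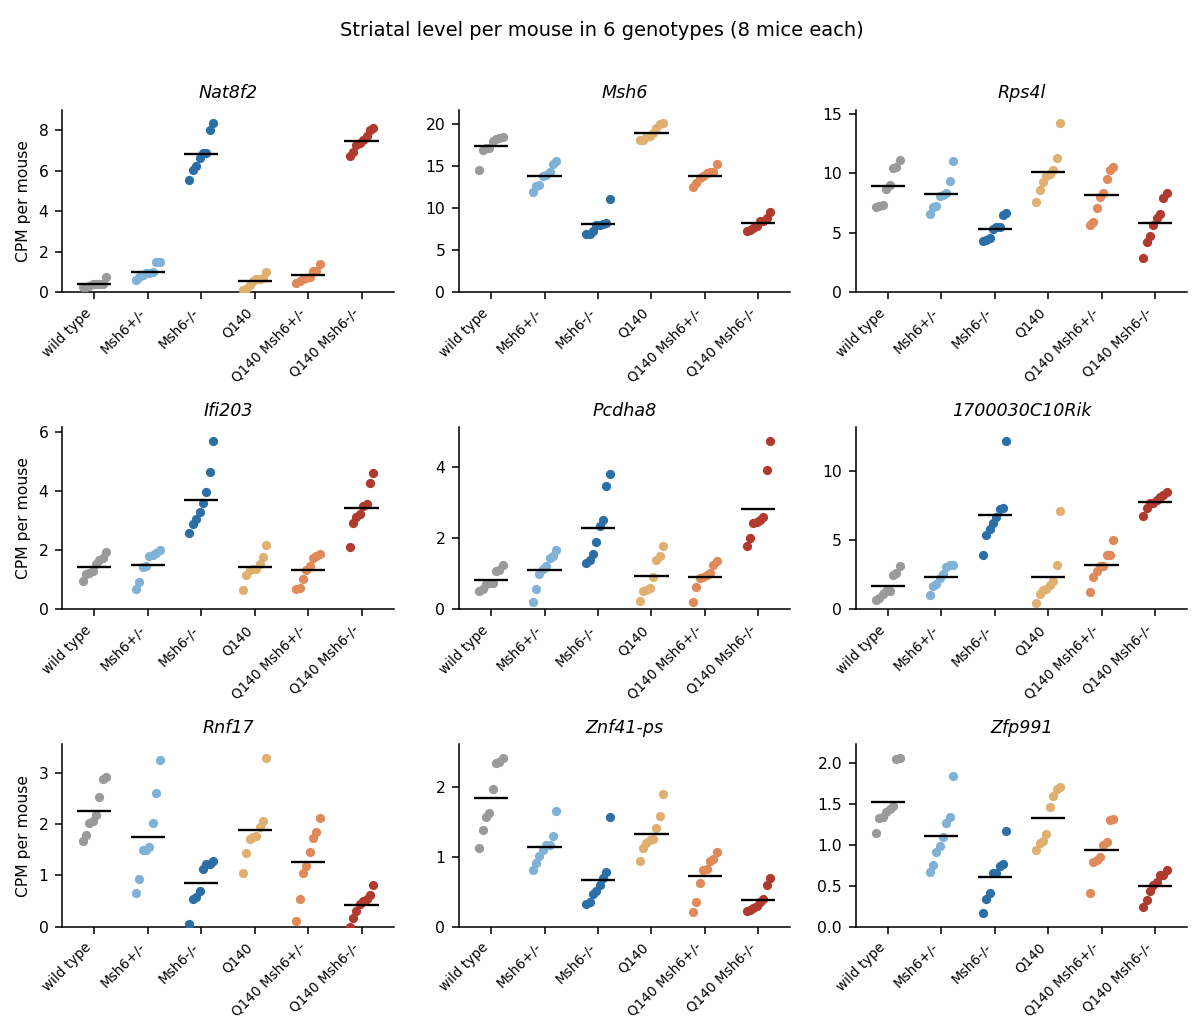
CPM in the striatum of each mouse for 9 genes, Msh6 among them, in the 6 genotypes of the series, with 1 point per mouse and a bar at the group mean. Nat8f2 lies at 6.74 to 8.13 CPM in Q140 Msh6-/- mice and at 0.110 to 1.01 CPM in Q140 mice.

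Several genes of low level also changed. Both identifiers that carry the symbol 1700030C10Rik, overlapping non-coding transcripts on chromosome 12, rose. The longer one (ENSMUSG00000099759, 20804381 to 20815779) ran from 0.474 to 7.09 CPM (median 1.61) in Q140 and from 6.72 to 8.51 CPM (median 7.77) in Q140 Msh6-/- striata. Only Q140 mouse 14-2, at 7.09 CPM, reached into the other group, the next Q140 mouse being at 3.24 CPM. The rise was 1.80 ± 0.26 (adjusted p = 2.86e-05), and 1.86 ± 0.29 (adjusted p = 0.000113) for the shorter identifier, ENSMUSG00000091071. Since they overlap, reads of 1 transcript can be counted in either.

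Rnf17, a Tudor-domain protein of male germ cells, fell. It ran from 1.04 to 3.29 CPM (median 1.76) in Q140 and from 0 to 0.815 CPM (median 0.471) in Q140 Msh6-/- striata, a change of -2.15 ± 0.38 (adjusted p = 0.00127). The groups did not overlap, and the counts behind them were 19 to 59 against 0 to 15. In mice with prefixes 21 to 29 the change was -1.81 ± 0.44 (adjusted p = 0.139). Rps4l, a copy of the ribosomal protein gene Rps4x, fell by 0.81 ± 0.14 (adjusted p = 0.000821), from a median of 9.84 to 5.90 CPM, with ranges of 7.59 to 14.2 and 2.83 to 8.32 CPM that overlap. In mice with prefixes 21 to 29 it was at -0.69 ± 0.15 (adjusted p = 0.0528).

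A pair of zinc finger family genes on chromosome 4, 1306.8 kb apart, both fell. Znf41-ps (145825237 to 145829942) ran from 0.933 to 1.90 CPM (median 1.24) in Q140 and from 0.225 to 0.693 CPM (median 0.318) in Q140 Msh6-/- striata. The change was -1.77 ± 0.26 (adjusted p = 2.86e-05). Zfp991 (147132038 to 147180579) ran from 0.941 to 1.71 CPM (median 1.30) against 0.235 to 0.693 CPM (median 0.527), a change of -1.36 ± 0.24 (adjusted p = 0.00147). Neither gene's groups overlapped. Zfp992 belongs to the same family of near-identical genes, among which the counting could assign reads to the wrong copy.

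Clustered protocadherins, which neurons use as identity labels at the cell surface, moved in both directions. Pcdha8 rose by 1.60 ± 0.23 (adjusted p = 2.86e-05), from 0.244 to 1.79 CPM (median 0.756) in Q140 to 1.78 to 4.72 CPM (median 2.48) in Q140 Msh6-/- striata. The ranges overlapped narrowly. Pcdha1, another first exon of the same cluster, rose by 0.96 ± 0.22 (adjusted p = 0.0436), from a median of 1.51 to 3.32 CPM, and stayed called in 4 of the 16 leave-outs. Pcdhga11 of the gamma cluster fell by 0.25 ± 0.057 (adjusted p = 0.0386), and 3222401L13Rik, a non-coding gene 100.3 kb away from it, fell by 0.68 ± 0.14 (adjusted p = 0.015), and they stayed called in 6 and 13 of the 16 leave-outs. DESeq2 also called Pcdhga3 at -0.32 (adjusted p = 0.0238) and Pcdhgb6 at -0.27 (adjusted p = 0.024) of the gamma cluster. Members of a cluster share their last exons, so reads of these exons cannot be given to 1 member with certainty. Without mouse 21-3 Pcdha8 stayed called (adjusted p = 9.22e-05), and Pcdha1 (adjusted p = 0.0755), Pcdhga11 (0.125) and 3222401L13Rik (0.0528) did not.

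Rhoq, a small GTPase 1.01 Mb from Msh6 on chromosome 17, rose by 0.19 ± 0.040 (adjusted p = 0.0205), from 39.6 to 45.7 CPM (median 43.8) to 45.9 to 53.9 CPM (median 48.9). The ranges did not overlap, but the call was lost on leaving out any one of mice 18-5, 21-3 (adjusted p = 0.0755), 23-2, 24-1 and 29-3. The strain of origin of this region is not given in the sources used here.

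No other mismatch repair gene passed the test. Of 25 tested genes of the pathway, Msh6 was the single call, and the median difference was -0.04. Msh3 was at -0.05 ± 0.050, and Fan1, a nuclease known as a modifier of Huntington's disease onset, at 0.00 ± 0.059. Pms1 was at -0.17 ± 0.080 (adjusted p = 0.888) and Pold3, a subunit of DNA polymerase delta, at 0.08 ± 0.037 (adjusted p = 0.898). Of 31 genes of base excision and strand break repair, 0 passed the test in edgeR or DESeq2, 2 had an unadjusted p under 0.05 and the median was -0.005. Of 22 targets of p53 and checkpoint genes, 0 passed in either, 1 had an unadjusted p under 0.05 and the median was 0.016, with Ccng1, a p53 target, at 0.10 ± 0.043 and Chek1, the replication checkpoint kinase, at 0.26 ± 0.15.

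Bub1b, a kinase of the mitotic spindle checkpoint, rose by 1.01 ± 0.23 (adjusted p = 0.0386; 0.0415 without mouse 21-3). It ran from 0.614 to 2.36 CPM (median 1.34) in Q140 and from 2.07 to 3.64 CPM (median 3.01) in Q140 Msh6-/- striata, with a small overlap, and it stayed called in 4 of the 16 leave-outs. Eps8l1, related to the actin regulator Eps8, rose by 1.26 ± 0.27 (adjusted p = 0.0248; 0.0528 without mouse 21-3), from 1.77 to 6.48 CPM (median 3.79) to 6.74 to 15.2 CPM (median 8.53), with no overlap, and stayed called in 10 of the 16 leave-outs. Sec24d, a subunit of the COPII vesicle coat, fell by 0.33 ± 0.073 (adjusted p = 0.0325; 0.0415 without mouse 21-3), from a median of 16.7 to 13.4 CPM, and stayed called in 7 of them.

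Ttn, the muscle protein titin, fell by 0.67 ± 0.15 (adjusted p = 0.0386; 0.108 without mouse 21-3), from 1.88 to 3.73 CPM (median 2.94) to 1.32 to 2.61 CPM (median 1.79). Ttn was also higher by 1.60 in Q140 Msh6+/- than in Msh6+/- mice (adjusted p = 1.16e-10), which share no mouse with the groups compared here. The remaining calls were transcripts with no assigned function: 6820431F20Rik rose by 0.27 ± 0.057, Gm9989 by 0.46 ± 0.10 and Gm4349 by 0.89 ± 0.21, and none of them was called without mouse 21-3. Ttn stayed called in 5 of the 16 leave-outs.

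Trem2, a lipid-sensing receptor of microglia, the immune cells of the brain, fell by 0.34 ± 0.075 (adjusted p = 0.0325). The adjusted p was 0.0994 without mouse 21-3. Trem2 lies at 48346401 to 48354147 on chromosome 17, the chromosome of Msh6. It ran from 11.0 to 14.6 CPM (median 12.5) in Q140 and from 8.11 to 10.9 CPM (median 10.4) in Q140 Msh6-/- striata, without overlap, and the call was lost on leaving out any one of mice 14-2, 18-5, 19-3, 21-3, 23-2 and 32-4. It was also lost with the prefix as covariate, at -0.28 ± 0.075 (adjusted p = 0.181), with the compared libraries alone (0.0668) and in mice with prefixes 21 to 29, at -0.20 ± 0.086 (0.766). With wild-type Htt it ran from 11.5 to 14.2 CPM in wild-type and from 10.7 to 15.3 CPM in Msh6-/- striata. Of the 14 microglial genes, Trem2 was the single call, 2 lay above 0 and 5 had an unadjusted p under 0.05. Their median difference was -0.08 and their summed level 489.0 to 548.5 CPM against 468.4 to 528.9 CPM. P2ry12, a purine receptor of resting microglia, was at -0.14 ± 0.054 (adjusted p = 0.781), and the complement subunit C1qa at -0.14 ± 0.063 (0.888). Tyrobp, the signalling partner of Trem2, was at 0.01 ± 0.083.

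The same Msh6 genotypes can be compared in mice with wild-type Htt, which share no animal with the Q140 groups. In Msh6-/- against wild-type striatum 17 genes were called (0.0971%), 8 higher (0.0457%) and 9 lower (0.0514%), and 1121 had an unadjusted p under 0.05. Of the 17, 14 were also called on Q140, which is 82.4% of that list and 45.2% of the Q140 list, all in the same direction. Nat8f2 rose by 4.08 ± 0.20 (adjusted p = 1.54e-21), Msh6 fell by 1.099 ± 0.066 (1.05e-17) and Ifi203 rose by 1.34 ± 0.18 (3.68e-06). Pcdha8, Pcdha1, Mndal, both 1700030C10Rik identifiers, Znf41-ps, Zfp991, Rps4l, Sec24d and 3222401L13Rik were also in the shared set. Tdrd1, a germline Tudor-domain gene, Zfp992 and Carns1, the carnosine synthase, were called there and not on Q140. Of the 31 genes called on Q140, 25 had the same direction there. The others were Trem2, at 0.01, and Ttr, Tmem72, F5, Col8a1 and 1500015O10Rik. Apart from Trem2, these are genes that mouse 21-3 expressed at over 5 times the next mouse of its group.

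Other genes called on Q140 were not called with wild-type Htt. Trem2 was at 0.01 ± 0.073 in Msh6-/- against wild type (adjusted p = 0.989), Bub1b at 0.65 ± 0.26 (0.642), Eps8l1 at 0.59 ± 0.28 (0.766) and Rnf17 at -1.42 ± 0.33 (0.0626). The difference between the 2 Msh6 effects was tested for every gene, and 0 of 17503 passed in edgeR, with 876 at an unadjusted p under 0.05, a smallest adjusted p of 0.0651, and 1 gene called by DESeq2. For Trem2 that difference was -0.35 ± 0.10 (adjusted p = 0.965), and for Nat8f2 -0.29 ± 0.32 (adjusted p = 0.998).

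**Figure D3:**
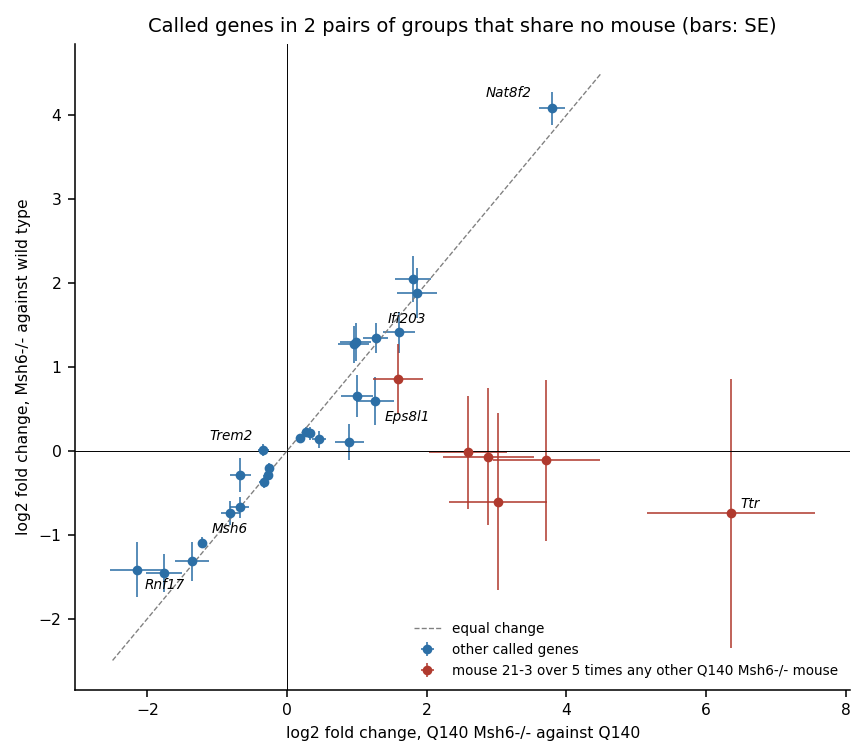
Log2 fold change of each of the 31 called genes with Msh6 loss in Q140 mice (horizontal axis) and in mice with wild-type Htt (vertical axis), with standard errors and the 6 genes over 5 times higher in mouse 21-3 marked. Nat8f2 lies at 3.79 and 4.08, and the marked genes lie between 1.59 and 6.36 on the horizontal axis.

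No gene of projection neuron identity passed the test on loss of Msh6. Of 46 tested, 0 passed the test in edgeR or DESeq2, 3 had an unadjusted p under 0.05, and the median difference was -0.00. The values ran from -0.15 ± 0.057 for Itpka, an inositol kinase, to 0.13 ± 0.099 for the opioid precursor Pdyn. For 43 of the 46 the 95% interval lay within 0.25 on either side of 0. The exceptions were Pdyn, Itpka and the opioid receptor Oprm1, whose bounds reached -0.27 for Itpka and 0.43 for Oprm1. For scale, 38 of the 46 fell in Q140 Msh6+/- against Msh6+/- mice, with a median difference of -0.58 over the list.

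The levels of single identity genes were as follows. Drd1, the D1 dopamine receptor of the direct pathway, was at 246.8 ± 9.15 CPM (SD, n = 8) in Q140 and 248.2 ± 13.4 CPM in Q140 Msh6-/- striata. Drd2, the receptor of the indirect pathway, was at 170.6 ± 11.6 against 169.1 ± 7.004 CPM, and the enkephalin precursor Penk at 732.6 ± 24.8 against 746.9 ± 49.4 CPM. In wild-type striata these genes stood at 382.7, 260.2 and 1804 CPM. Ppp1r1b, the dopamine-signalling protein DARPP-32, was at 1561 ± 61.2 against 1562 ± 86.6 CPM, and the phosphodiesterase Pde10a at 1524 ± 92.7 against 1547 ± 100 CPM.

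**Figure D4:**
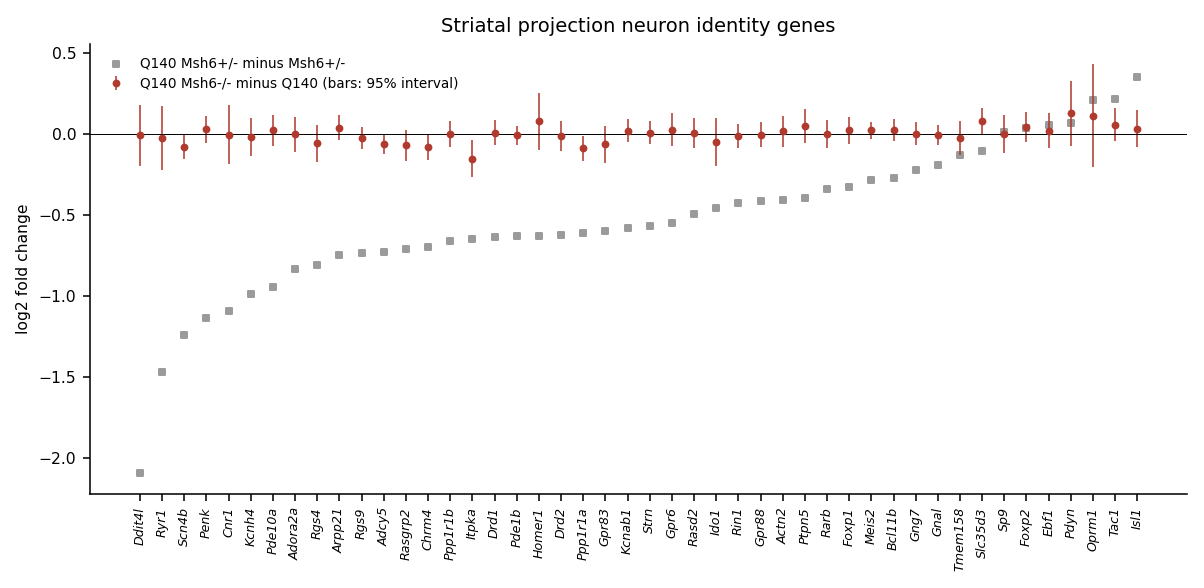
Log2 fold change with 95% interval for the 46 projection neuron identity genes, Q140 Msh6-/- against Q140 striatum, beside their difference in Q140 Msh6+/- against Msh6+/- mice. The Msh6 differences lie between -0.15 and 0.13, and 38 of the Q140 differences lie below 0 and past the test.

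The genes that Q140 moves were also followed as a whole. They were taken from Q140 Msh6+/- against Msh6+/- striatum, where 5462 genes were called (31.2%), so that no mouse of the present groups chose them. Of the 2847 that rose there, 56.4% lay above 0 on loss of Msh6, with a median of 0.0079. Of the 2615 that fell there, 40.04% lay above 0, with a median of -0.0121. Of the 12041 not called, 52.5% lay above 0, with a median of 0.0039. The median Q140 changes of the same sets were 0.20 and -0.26. Each mouse was also given the mean over these genes of its log2 CPM minus the Q140 average. For the rising genes it ran from -0.0201 to 0.0204 in single Q140 mice and from 0.0001 to 0.018 in Q140 Msh6-/- mice, and for the falling genes from -0.0272 to 0.0201 against -0.0345 to 0.0047, so the groups overlapped. The called genes in these sets were Ttn and 6820431F20Rik among those that rose and 3222401L13Rik and Znf41-ps among those that fell.

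Lists of other cell types and pathways held no call beyond those named. Dopamine and cAMP signalling (29 genes tested, median -0.00), astrocytes (16, 0.01), oligodendrocytes (16, -0.07), endothelium (14, 0.02), interneurons (15, -0.05), cholesterol synthesis (22, -0.02), oxidative phosphorylation (23, -0.01), glutamate receptors (21, -0.02) and heat shock proteins (15, 0.04) each had 0 genes past the test in edgeR or DESeq2, and 0 to 2 genes each had an unadjusted p under 0.05. Pericytes and fibroblasts (14, -0.03), cortical glutamatergic neurons (13, 0.04), thalamic and septal neurons (11, 0.02) and blood (4, -0.60) also had 0 past the test in either, with 0 to 3 at an unadjusted p under 0.05, and all 4 blood genes lay below 0. On the log2 FPKM scale the median of blood turned to 0.31 and that of cortical glutamatergic neurons to -0.05, and without mouse 21-3 the latter was at -0.005 and that of thalamic and septal neurons at -0.01. Of the oligodendrocyte genes 2 lay above 0, of the interneuron genes 3 and of the cholesterol synthesis genes 3. Among the oligodendrocyte genes Aspa, an enzyme of acetylaspartate breakdown, was at -0.17 ± 0.081 and the myelin glycoprotein Mag at -0.13 ± 0.072. Slc17a7, the vesicular glutamate transporter of cortical neurons, was at 0.71 ± 0.26 (adjusted p = 0.713), the farthest from 0 among the markers of cortical glutamatergic neurons.

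The cortex of the same 16 mice gave 27 called genes, 14 higher (0.0794%) and 13 lower (0.0738%), in all 0.153% of 17622. Of the 31 striatal calls 15 were also called there, and all 30 that could be tested had the same direction. Tissues of the same mice are not independent. The 30 include Ttr, F5, Col8a1, Slc2a12 and 1500015O10Rik, whose striatal calls rest on mouse 21-3. Without that mouse F5 was at -0.05 in striatum, against 0.63 in cortex, and the other genes just named stayed above 0. Nat8f2 ran from 0.0460 to 0.612 CPM in the cortex of Q140 and from 3.42 to 5.16 CPM in that of Q140 Msh6-/- mice, a rise of 3.79 ± 0.23. Msh6 fell by 1.29 ± 0.049 there, Bub1b rose by 1.26 ± 0.23 (adjusted p = 0.00235), Eps8l1 rose by 1.15 ± 0.24 (0.0154) and Trem2 fell by 0.27 ± 0.063 (0.0412). Ifi203 was at 0.73 there (adjusted p = 0.0884).

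The test of striatum against cortex, in 1 fit of the 32 libraries, called 1 of 17661 genes (0.00566%), with 643 at an unadjusted p under 0.05. This was Wwox, an oxidoreductase gene that spans a fragile site. In striatum it was at 11.7 to 13.4 CPM (median 12.01) in Q140 and 11.2 to 14.1 CPM (median 12.4) in Q140 Msh6-/- mice, a difference of 0.03 ± 0.054. In cortex it was at 16.7 to 20.1 CPM (median 18.7) against 25.5 to 28.7 CPM (median 26.9), with no overlap, a rise of 0.55 ± 0.055 (adjusted p = 1.23e-09). The difference between the effects, striatum minus cortex, was -0.53 ± 0.061 (adjusted p = 3.62e-06). With wild-type Htt, in mice that the test did not use, Wwox was at 16.6 to 20.8 CPM in wild-type cortex and at 23.1 to 33.5 CPM in Msh6-/- cortex, also without overlap. Between the sexes, 0 of 17503 genes differed in their response to Msh6 loss by edgeR, with 669 at an unadjusted p under 0.05.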

How the data were processed

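RNA sequencing of striatum and cortex was analysed from 2 deposited tables with 48795 genes and 96 libraries: the authors' integer read counts per gene and the authors' FPKM values, which equal the deposited count over a gene length that is the same in all libraries and over the column total. Per the labels' protocols, RNA came from Qiagen RNeasy columns and libraries from a TruSeq stranded kit. Per the submitters' processing notes, STAR 2.7.5c, SAMtools 1.10 and HTSeq 0.12.3 were used with GRCm38 (mm10). How strand was set in counting, and with which annotation, is not given in the sources used here. Genes with overlaps or near-identical copies are therefore uncertain. GENCODE M21 matched 48349 of the identifiers and gave coordinates.

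Groups came from the titles. By their animal numbers, each library of a tissue is from a separate mouse, and each mouse gave both tissues. The prefix of these numbers, whose meaning the labels do not state, ran from 14 to 29 in Q140 and 21 to 38 in Q140 Msh6-/- mice. The 48 striatal libraries were fitted with edgeR 4.0.16 (R 4.3.3) quasi-likelihood, with TMM scaling, filterByExpr (minimum count 10, minimum total 15, smallest group 8), a term per genotype and sex as covariate. Adjusted p is Benjamini-Hochberg over all genes tested, called under 0.05. Standard errors were taken from the F statistic and intervals are 95%. The difference between Msh6 effects was a contrast of this fit, the sex difference came from a genotype by sex fit, and the tissue difference from the 32 libraries of both groups and tissues, repeated with the mouse as a block because both tissues come from the same animal. Over 16806 genes the median correlation of the residuals of a mouse's own 2 tissues was 0.132 (0.056 to 0.232, 16 mice), against -0.01 between mice, and 14 mice fitted their own tissue best. No library pair agreed within sampling noise: chi-square per gene was 2.64 to 13.6 over 56 pairs.

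Other settings tried were a looser threshold (0.1), RLE scaling, no low-count filter, no sex term, the prefix as covariate, DESeq2 1.42.0, the compared libraries alone, limma-trend (limma 3.58.1) on log2 FPKM with 0.1 or 1 added (mean FPKM 0.1 or more), single sexes, prefixes 21 to 29, and each mouse left out. List medians under other scalings and without mouse 21-3 were added after the data were seen. The scripts were tested on simulated data. Named genes are the called genes, Msh6, Htt and Ttr and Kl, and up to 4 members per list with the smallest p; Msh3, Fan1, Tyrobp, Zfp992, the genes beside Nat8f2 and the examples among identity genes were chosen after their values were seen. Some genes that this rule names are not reported here. The members and the 27 gene lists were chosen with earlier results of these data known. Promoter sequences are from RefSeq on GRCm38.p6.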

Additional observations from a re-analysis of the deposited data

Results flagged for a closer look

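Single mice far from the other 7 of their group were sought by the gap to the next mouse relative to the group's range. They were found in 18 of 172 gene and group combinations. The genes include Ttr and Kl, named in advance because of mouse 21-3, and genes called only with this mouse. The 18 therefore cannot be set against a chance rate. Of the 18, 7 had mouse 21-3 highest: Ttr at 2491 CPM, Kl at 127.3, F5 at 67.18, Tmem72 at 46.64, 1500015O10Rik at 27.23, Slc2a12 at 22.23 and Col8a1 at 21.2 CPM. Among Q140 mice, mouse 14-2 was highest for 4: both 1700030C10Rik identifiers (7.092 CPM for ENSMUSG00000099759 and 2.848 CPM for ENSMUSG00000091071), Rnf17 (3.295 CPM) and Mndal (1.675 CPM). For 1700030C10Rik and Mndal this mouse lay toward the Q140 Msh6-/- values, and for Rnf17 away from them. Mouse 24-1 was highest for Ttr at 9.023 CPM among Q140 mice. Mouse 19-3 was highest for Usp18 at 2.799 CPM and lowest for Aptx, a single-strand break repair enzyme, at 27.61 CPM. Among Q140 Msh6-/- mice, mouse 24-2 was highest for Acta2 (10.64 CPM), a smooth muscle actin, and for the globins Hbb-bs (4.84 CPM) and Hba-a2 (1.238 CPM), and mouse 32-4 was lowest for Mag at 156.9 CPM.

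The response of Wwox to Msh6 loss differed between the tissues of the same mice, by -0.532 in striatum minus cortex, as tested in 1 fit of both tissues.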

How the results depend on the processing

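The count of 31 genes for Msh6 loss on Q140 in striatum was 42 at an adjusted p of 0.1, 31 with RLE scaling, 30 without the sex term, 27 with the animal number prefix as covariate (22 among the 31) and 30 with DESeq2, of which 24 were among the 31. It was 50 without a filter on low counts, 15 with the compared libraries alone, 12 and 15 by limma-trend on log2 FPKM plus 0.1 and 1, 5 in males alone, 2 in females alone and 12 in mice with prefixes 21 to 29 (of which 11 were among the 31); in the last 3 fewer mice were compared, and for the others the cause was not tested. Leaving out 1 mouse gave 14 (without 21-3) to 36 (without 21-4). F5 turned to -0.046 without mouse 21-3, with 3.073 the highest value on leaving out any other mouse, and Tmem72 to -0.019 in females alone. The Msh6 transcript kept its direction and call in every setting run, from -1.257 to -0.909. The count with wild-type Htt was 17, and 26 at an adjusted p of 0.1 and 27 with DESeq2. The difference of Msh6 effects gave 0 genes, and 1 at an adjusted p of 0.1 and 1 with DESeq2. The cortical count of 27 ran from 19 to 37. With the mouse as replicate block, the tissue difference again called 1 gene, Wwox (-0.53 ± 0.069, adjusted p = 0.00067). Depth limits genes under about 1 CPM, whose counts were often under 20 per library. Of genes averaging a log2 CPM of 1 or more, 82.8% had a standard error under 0.1, which covers counting error and the spread between mice.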

Other observations

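Several lists not described above stayed close to 0 as groups. Immediate early genes, the fast transcriptional response of active neurons, had a wide spread between mice, with sums of 701.6 to 1315 CPM in Q140 and 438.9 to 1251 CPM in Q140 Msh6-/- striata, and a median difference of -0.05, and 0 of 16 passed in edgeR or DESeq2, with 0 at an unadjusted p under 0.05. Developmental transcription factors that Polycomb keeps silent in adult neurons had 9 of 42 members expressed enough to test, with a median of 0.03, 0 called by edgeR or DESeq2 and 0 at an unadjusted p under 0.05. Synaptic vesicle genes (19 tested) had a median of -0.01, potassium and sodium channels (21) -0.02, and oligodendrocyte precursor genes (11) 0.02. Each had 0 called by edgeR or DESeq2 and 0 at an unadjusted p under 0.05. Above 0 lay 8 of the synaptic vesicle genes, 5 of the channels and 7 of the precursor genes. Of the immediate early genes 4 lay above 0, and of the tested developmental factors 6. Tcf7l2, a transcription factor of thalamic neurons, was at 0.30 ± 0.094 (adjusted p = 0.475), and mt-Nd1, a mitochondrially encoded subunit of complex I, at -0.12 ± 0.034 (adjusted p = 0.338).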
